A study of Mus musculus with 7 samples.

Results

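The miR-376 and miR-300 microRNAs (miRNAs) were followed in mouse soft tissue sarcoma cells before and after depletion of Rb and after passage through spheres. The members were all array entries of 4 hairpins, mmu-miR-376a, mmu-miR-376b, mmu-miR-376c and mmu-miR-300, either arm. The array held 8 such entries of 696 mouse miRNAs, and 5 of the 252 mouse miRNAs in the deposited table were members. These 5 were the 3p arms, listed as miR-376a, miR-376b, miR-376c and miR-300, and the 5p arm of miR-376b, listed as miR-376b*. The other 3 entries, the 5p arms of miR-376a, miR-376c and miR-300, were not in the table.

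All cells came from soft tissue sarcomas of p53 knocked out mice, so every group lacked p53, and all were kept under puromycin after transduction with a short hairpin RNA. Control primary cells carried the non-target hairpin SHC002 and grew as monolayers (2 arrays). Rb-depleted primary cells carried the Rb hairpin TRCN0000042543 and also grew as monolayers (2 arrays). Rb-depleted secondary cells carried the same Rb hairpin, had formed spheres in serum-free methylcellulose with B27, EGF and bFGF, and were then passaged once as monolayers (3 arrays). A single hairpin was used against Rb, the age of the mice was not given in the sources used here, and control cells passed through spheres were not analysed here. The labels describe 2 or 3 independent experiments per condition. The array holds no probe for the Rb1 messenger RNA, so the depletion could not be checked on these arrays. In such bulk samples, fewer cells of a type and less RNA per cell cannot be told apart.

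A hairpin precursor is cut into a duplex of 2 arms, and the arm loaded into an Argonaute protein pairs with target messenger RNAs mainly through its seed, bases 2 to 8. The 4 hairpins belong to the Dlk1-Dio3 imprinted region, in which long noncoding transcripts that include Meg3, Rian and Mirg, with the miRNAs, are made from the maternal chromosome, and the protein-coding genes Dlk1, Rtl1 and Dio3 from the paternal one. These miRNAs are known for their expression in embryos, placenta and brain. Primary transcripts of the miR-376 group are also known substrates of ADAR enzymes, which convert adenosine to inosine, in some cases within the seed. The arrays do not report such editing.

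On the mouse build NCBIM37 all 4 hairpins lay on the plus strand of chromosome 12 within 1674 bases, from chr12:110960928 to 110962601. Mir376c was at chr12:110960928-110961013, Mir376b at chr12:110961668-110961749, Mir376a at chr12:110961991-110962058 and Mir300 at chr12:110962523-110962601. The hairpin of miR-654 lay between Mir376c and Mir376b, and no entry of it was detected on any array. In the GENCODE vM1 annotation, the only one searched, no protein-coding gene or long noncoding RNA covered the 4 hairpins. They lay after the end of Rian (chr12:110842155-110899919) and before Mirg (chr12:110973191-110987665) as drawn in that annotation. On the minus strand, an annotated miRNA gene, AC121784.2, overlapped Mir376a.

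Mature sequences were found in RefSeq (GRCm38.p6) for 7 of the 8 member arms, all but miR-376c-3p. The sequences below are those that show which members can share targets and which might share a probe's signal, written 5′ to 3′ with the seed in capitals. The first 2 are the detected 3p arms of miR-376a and miR-376b, the next 2 are miR-300-3p and miR-381-3p, the 3p arm of the nearest measured hairpin after Mir300, and the last 2 are the 5p arms of miR-376b and miR-376c.
miR-376a-3p: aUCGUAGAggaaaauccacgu
miR-376b-3p: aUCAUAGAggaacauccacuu
miR-300-3p: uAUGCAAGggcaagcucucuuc
miR-381-3p: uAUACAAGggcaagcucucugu
miR-376b-5p: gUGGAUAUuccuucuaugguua
miR-376c-5p: gUGGAUAUuccuucuauguuua

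Counted from 1 at the 5′ end, miR-376a-3p and miR-376b-3p were identical at 18 of 21 positions and differed by G4A, A13C and G20U, the first of them in the seed. miR-300-3p and miR-381-3p were identical at 19 of 22 positions and differed by G4A, U21G and C22U, again with 1 difference in the seed. The 5p arms of miR-376b and miR-376c differed only by G19U (21 of 22 positions identical) and had the same seed. This was the only seed that a matched member shared with another of the 1679 mature miRNA names searched. The 3p arms of miR-376a and miR-376b therefore each had a seed of their own, although they came from neighbouring hairpins. How far the probes tell these close sequences apart was not tested.

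The 7 arrays detected 258 to 287 mouse miRNAs each, and the summed signal of the table's miRNAs ran from 432616 (Rb-depleted primary replicate 2) to 550498 intensity units (control replicate 1). The number of arrays limits the precision of each comparison below. A second slide held secondary replicates 2 and 3 and the first slide the other 5 arrays. Of the miRNAs that mark mesenchymal cells, miR-199a-5p, miR-199a-3p, miR-214, miR-143 and miR-145a-5p were detected on all 7 arrays, and the other arm, miR-145a-3p, on 0. The markers of epithelium (the miR-200 family, miR-141 and miR-429), blood cells (miR-142, miR-223 and miR-150) and neurons (miR-124) were detected on 0 arrays. Of the endothelial pair miR-126-3p and miR-126-5p only the former was detected, on the 4 arrays of primary cells, at no more than 10.7 units. Of the muscle markers only miR-206-3p was detected, on all 7 arrays, between 12.9 and 47.0 units.

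The scanner's total gene signal, an intensity on a linear scale before any normalization between arrays, is given first with the error that the scanner software attached to it. Signals of different miRNAs depend on their probes, so levels are compared between arrays and not between miRNAs. The signal of miR-300 was 279.6 ± 21.6 and 292.2 ± 22.7 units on the control arrays. It was 182.6 ± 14.4 and 119.9 ± 9.61 on the Rb-depleted primary arrays, and 170.5 ± 13.8, 181.1 ± 14.4 and 157.8 ± 12.5 on the Rb-depleted secondary arrays. All 5 Rb-depleted arrays were below both control arrays, and the secondary arrays lay between the Rb-depleted primary ones.

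For miR-376a the signal was 233.6 ± 17.7 and 230.4 ± 17.5 units on the control arrays, while the Rb-depleted primary arrays had 137.9 ± 10.8 and 88.3 ± 7.05. The secondary arrays had 187.7 ± 14.4, 155.2 ± 12.1 and 163.3 ± 12.4. The 3 groups did not overlap, with the secondary cells in the middle. The signal of miR-376b was 143.8 ± 11.1 and 133.1 ± 10.6 units on the control arrays, 76.9 ± 6.59 and 43.9 ± 4.36 on the Rb-depleted primary arrays, and 71.3 ± 6.97, 80.2 ± 6.71 and 72.1 ± 6.08 on the secondary ones. Here the secondary arrays lay close to the higher of the Rb-depleted primary arrays. The signal of miR-376c was 83.4 ± 5.53 and 102.0 ± 6.59 units on the control arrays, 60.5 ± 4.23 and 39.8 ± 2.96 on the Rb-depleted primary arrays, and 75.9 ± 5.37, 72.1 ± 4.80 and 78.7 ± 4.92 on the secondary ones. The 3 groups did not overlap, although secondary replicate 3 and the lower control array differed by less than the scanner's error.

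miR-376b*, the other arm of the miR-376b hairpin, had signals of 19.7 ± 3.43 and 21.9 ± 3.76 units on the control arrays, 12.5 ± 2.81 and 8.47 ± 2.24 on the Rb-depleted primary arrays, and 19.4 ± 3.84, 14.1 ± 2.74 and 15.4 ± 2.67 on the secondary ones. The secondary arrays lay between the other groups without overlap, with scanner errors wider than the gaps to either. For all 5 entries, Rb-depleted primary replicate 2 had the lowest signal of the 7 arrays, and it was also the array with the lowest summed signal.

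**Figure D1:**
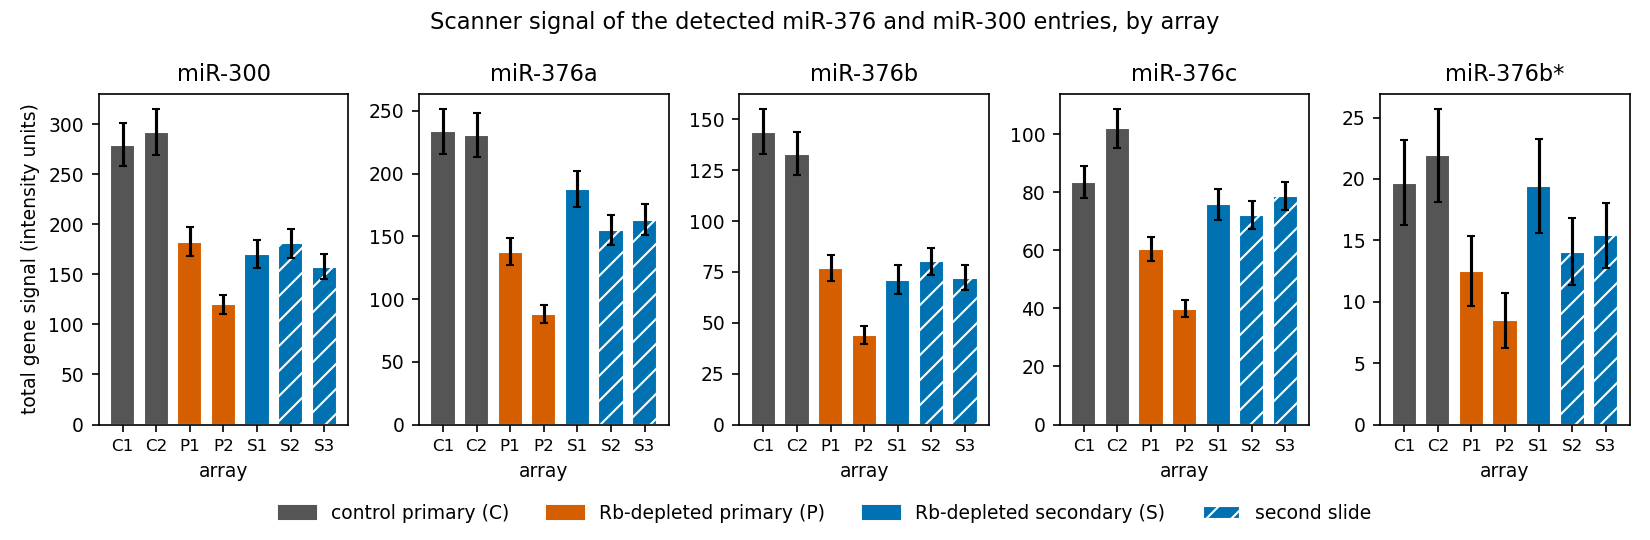
Total gene signal (intensity units, linear axis from 0, each panel with its own range) of the 5 detected entries on each array: C, control primary; P, Rb-depleted primary; S, Rb-depleted secondary; numbers are replicates, bars on the second slide are hatched, and error bars are the scanner's own signal error. Both control bars stand above both Rb-depleted primary bars in every panel, and the lowest bar of each panel is Rb-depleted primary replicate 2.

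The 5p arm of miR-376a was detected only on Rb-depleted secondary replicates 2 and 3, at 4.44 ± 1.25 and 3.48 ± 1.15 units, the 2 arrays of the second slide. The 5p arm of miR-300 was detected on 1 array, control replicate 2, at 5.19 ± 1.61 units, and that of miR-376c on 0 of 7. Arrays without detection carry a placeholder of 0.1 units. These detections lay near the lowest signal that the software called on any miRNA, which was 4.51 and 4.85 units on the control arrays, 3.81 on secondary replicate 2 and 3.47 on secondary replicate 3. The brightest of the 4 probes for the 5p arm of miR-376a read 4.14 and 4.32 units on the control arrays, where the entry was not called. On secondary replicates 2 and 3, where it was called, this probe read 4.44 and 3.48 units, the first above and the second below the control readings. The 5p arms of miR-376b and miR-376c, which differ by the single base G19U, behaved differently as entries, with detection on 7 and 0 arrays, and no probe for the latter exceeded 0.974 units on any array.

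The comparisons below use the deposited values, which are log2 values after quantile normalization across arrays. This normalization gives miRNAs of the same rank on 2 arrays the same value, so the control arrays share the value 7.56 for miR-376a (SD 0) although their signals were 233.6 and 230.4 units. On this scale miR-300 had a mean of 7.99 ± 0.055 (SD, n = 2) in control cells, 7.31 ± 0.35 (SD, n = 2) in Rb-depleted primary cells and 7.53 ± 0.11 (SD, n = 3) in Rb-depleted secondary cells. The means of miR-376a were 7.56, 6.87 ± 0.28 and 7.55 ± 0.10 in the same order of groups, and those of miR-376b were 6.82 ± 0.19, 5.93 ± 0.35 and 6.42 ± 0.14. For miR-376c they were 6.15 ± 0.13, 5.74 ± 0.24 and 6.45 ± 0.034, and for miR-376b* 3.91 ± 0.29, 2.85 ± 0.92 and 4.29 ± 0.20. In each entry the spread was widest between the Rb-depleted primary arrays.

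The moderated F-test of limma over the 3 groups asked which miRNAs differed in any group. All 5 entries had a Benjamini-Hochberg adjusted p under 0.1, the threshold of the study's methods, which 43.3% of the 252 miRNAs passed. The adjusted p was 0.0314 for miR-376c, 0.0376 for miR-376a, 0.0573 for miR-376b, 0.0741 for miR-300 and 0.0857 for miR-376b*. The first 2 were under 0.05, as were 20.2% of the 252. Of all 252 miRNAs, 109 passed. Both counts fell when most of the arrays were left out in turn, but not for every array. Without secondary replicate 2, 4 of the 5 passed and the count over all 252 rose. Leaving out Rb-depleted primary replicate 1 did not lower the members' count. Without control replicate 1 or 2, 1 of the 5 passed, beside 33 or 45 of the 252. Without Rb-depleted primary replicate 2 it was 3 of the 5 and 68 of the 252, and without secondary replicate 1 or 3 it was 2 of the 5 and 53 or 57 of the 252. With slide as a term 0 of the 5 and 24 of the 252 passed, and in the classical analysis of variance 2 and 62.

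The first pair of groups asks what goes with Rb depletion in monolayers, and its arrays all lay on the first slide. All 5 entries were lower in Rb-depleted than in control primary cells, and in all 5 the groups did not overlap in that direction, as in 26.6% of the 252 miRNAs. In limma's fit 0 of the 5 passed a Benjamini-Hochberg adjusted p of 0.05, which 1.59% of the 252 did. At an unadjusted p under 0.05, 4 of the 5 were lower, as were 37 of the 252 (25.4% in either direction). Dunnett's adjustment over the comparisons with control cells, applied to miRNAs past the F-test in place of an adjustment over miRNAs, passed 4 of the 5 and 17.1% of the 252, and classical tests passed 0 of the 5.

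miR-376b had a log2 fold change of -0.89 (standard error 0.20, adjusted p = 0.102), which is 53.8% of the control level with a 95% interval from 38.0% to 76.3%. miR-376a had one of -0.69 (standard error 0.15, adjusted p = 0.102), or 61.9% of the control level (47.9% to 80.1%). miR-300 had -0.68 (standard error 0.18, adjusted p = 0.113), or 62.3% (45.7% to 84.9%). The smallest difference was that of miR-376c, -0.41 (standard error 0.13, adjusted p = 0.147), or 75.4% (59.7% to 95.2%). For miR-376b* the value was -1.05, but with a standard error of 0.43 (adjusted p = 0.209) its interval ran from 22.8% to 102.1% of the control level.

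With all arrays 0 of the 5 passed, and this count depended on the arrays used and on the normalization. Without Rb-depleted primary replicate 1, so that replicate 2 stood alone and was assumed to vary like the other groups, 4 of the 5 passed at an adjusted p of 0.0326 each, all but miR-376c, while the calls among all 252 miRNAs went from 4 to 22. The members' median log2 fold change was -0.69 with all arrays, -0.93 without replicate 1 and -0.44 without replicate 2. All 5 passed where the arrays were not normalized, as did 27 of the 252 miRNAs, a setting in which the median over all 252 miRNAs moved to -0.26 and that of the members to -1.01.

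**Figure D2:**
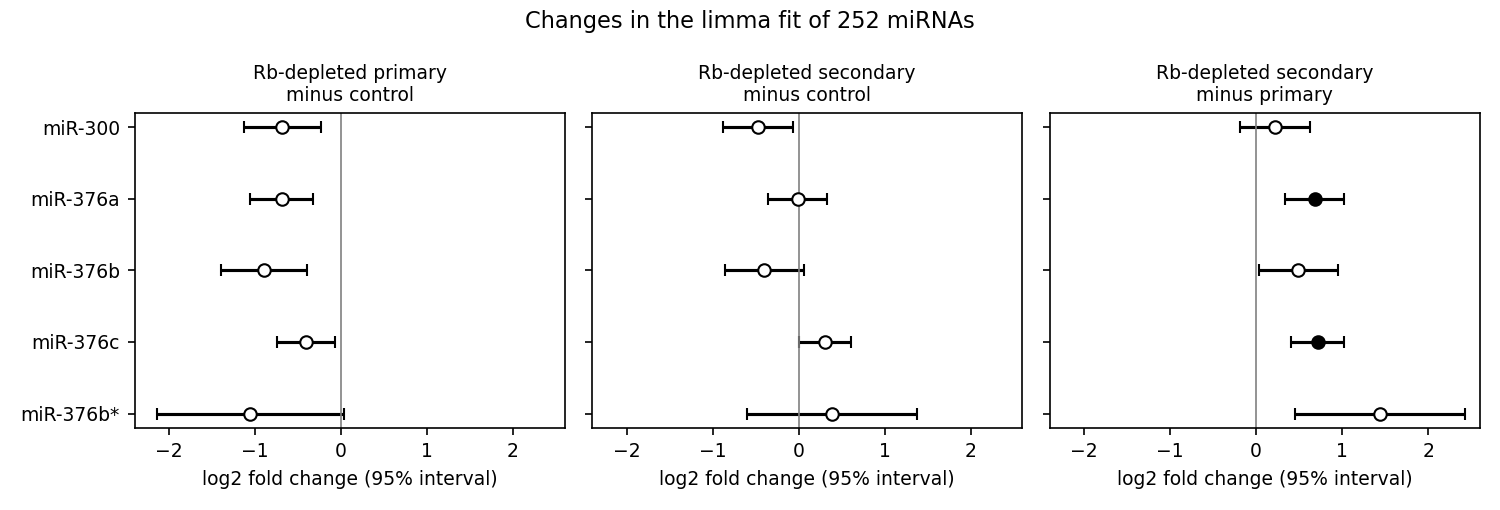
Log2 fold change of the 5 entries in each pair of groups, from the limma fit of 252 miRNAs on the deposited log2 values of 7 arrays; bars are 95% intervals without adjustment, and filled points have a Benjamini-Hochberg adjusted p under 0.05. The left panel holds values below 0 only, the middle panel has values on both sides of 0, and the 2 filled points are miR-376a (0.68) and miR-376c (0.72) on the right.

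Between Rb-depleted secondary and control primary cells, the members no longer had 1 direction. The signals without normalization of all 5 were lower on average, but the median over the 252 miRNAs was then also lower, by 0.46 on the log2 scale. On the deposited scale miR-300 and miR-376b lay below the control arrays without overlap, as did 22.2% of the 252 miRNAs, and miR-376c and miR-376b* lay above them, as did 29.8%. For miR-376a the groups overlapped. In limma's fit 0 of the 5 passed an adjusted p of 0.05, which 22.6% of the 252 did, and 2 of the 5 had an unadjusted p under 0.05, against 36.5%. Dunnett's adjustment passed 0 of the 5 and 27.8% of the 252, and classical tests passed 0 of the 5.

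The log2 fold change of miR-300 was -0.47 (standard error 0.16, adjusted p = 0.107), or 72.3% of the control level (95% interval 54.5% to 95.9%), and that of miR-376b was -0.40 (standard error 0.18, adjusted p = 0.172). miR-376c had 0.31 (standard error 0.12, adjusted p = 0.137), or 123.8% of the control level (100.03% to 153.1%). miR-376b* had 0.38 (standard error 0.40, adjusted p = 0.523). miR-376a had -0.01 (adjusted p = 0.960), with an interval from 78.4% to 125.5% of the control level. Without normalization miR-376c and miR-376b* turned to -0.29 and -0.36, which is lower than in control cells but above the median of all miRNAs at -0.46. miR-300 passed at an adjusted p of 0.0418 with array weights, a setting in which 85 of the 252 miRNAs passed. Leaving out an Rb-depleted primary array could not change its log2 fold change of -0.47. This pair of groups uses those arrays only for the shared estimate of the spread.

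The third pair, Rb-depleted secondary against Rb-depleted primary cells, also tests whether the differences from control cells differ between the 2 kinds of Rb-depleted cells, since both are measured against the same control arrays. In limma's fit miR-376c and miR-376a were higher in secondary cells and passed, while 12.7% of the 252 miRNAs passed in that direction. miR-376c had a log2 fold change of 0.72 (standard error 0.12, adjusted p = 0.0172), or 164.2% of the Rb-depleted primary level (95% interval 132.7% to 203.1%). miR-376a had 0.68 (standard error 0.14, adjusted p = 0.0285), or 160.2% (126.7% to 202.7%). Both were higher on 3 of 3 secondary arrays than on either Rb-depleted primary array.

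The other 3 entries did not pass. At an unadjusted p under 0.05, 4 of the 5 members were higher, as were 57 of the 252 miRNAs (40.5% in either direction). miR-376b* had a log2 fold change of 1.44 (standard error 0.40, adjusted p = 0.0578) and miR-376b one of 0.49 (standard error 0.18, adjusted p = 0.104), both without overlap of the groups in the deposited values, and miR-300 had 0.22 (standard error 0.16, adjusted p = 0.368) with overlapping groups. Groups did not overlap, with secondary cells higher, in 27% of the 252 miRNAs. The value of miR-300 came to -0.03 without Rb-depleted primary replicate 2. The size of the miR-376b* change depended on the normalization. It was 0.65 without normalization (limma adjusted p = 0.0664). Scaled to the 75th percentile it was 0.87 (adjusted p = 0.0357, with 34 of the 252 miRNAs passing). With the table's miRNAs normalized alone it was 0.90 (adjusted p = 0.0192, with 53 of the 252 passing).

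Both calls were lost with slide as a term, at an adjusted p of 0.112 for miR-376c and 0.0939 for miR-376a, with log2 fold changes of 0.71 and 0.79. In that fit 0 of all 252 miRNAs passed. On the first slide alone, secondary replicate 1 had deposited values of 6.45 for miR-376c, where the Rb-depleted primary arrays had 5.91 and 5.57, and of 7.66 for miR-376a, where these had 7.06 and 6.67. This single array was above both, and the fit with slide as a term rests on it, since it is the only secondary array on that slide. The calls were also lost without Rb-depleted primary replicate 2, where 1 array stood for its group. There the log2 fold changes were 0.55 for miR-376c and 0.48 for miR-376a, and calls fell over all 252 miRNAs too. Leaving out secondary replicate 1 (adjusted p = 0.0634 for miR-376c and 0.0819 for miR-376a) or secondary replicate 3 (0.0548 and 0.0702) also lost both calls. Both were lost without normalization (0.0648 and 0.0677) and in classical tests (0.0566 and 0.0644) as well. Of all 252 miRNAs, 51 passed in either direction with all arrays. This became 17 without secondary replicate 1, 18 without secondary replicate 3, 15 in classical tests and 45 without normalization. The call of miR-376a alone was lost without either control array, where calls over all 252 miRNAs fell as well.

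Ratios between members within an array need no normalization, since any factor common to the array cancels. A probe counted on only some arrays does not cancel. The signal of miR-376c included its dimmest probe only on control replicate 2 (4.86 units) and secondary replicate 3 (5.43 units), which raised the ratios of miR-376c to miR-300 there. The ratios were compared after the values had been seen. The signal of miR-376c was 0.298 and 0.349 of that of miR-300 on the control arrays and 0.331 and 0.332 on the Rb-depleted primary ones. On the secondary arrays it was 0.445, 0.398 and 0.499, above all 4 arrays of primary cells. The geometric mean ratio was 1.38-fold higher than in control cells, at the smallest p that an exact two-sided permutation test of 3 against 2 arrays can give (p = 0.1), and the adjusted p over the 18 comparisons of the 4 3p entries was 0.429. Against Rb-depleted primary cells it was 1.34-fold higher (exact permutation p = 0.1, adjusted p = 0.429).

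The signal of miR-376a was 0.836 and 0.789 of that of miR-300 on the control arrays, 0.755 and 0.736 on the Rb-depleted primary ones, and 1.10, 0.857 and 1.03 on the secondary ones, again without overlap (exact permutation p = 0.2 against either primary group, adjusted p = 0.429). For miR-376b the ratio to miR-300 came to 0.514 and 0.455 on the control arrays, 0.421 and 0.366 on the Rb-depleted primary ones, and 0.418, 0.443 and 0.457 on the secondary ones, where the secondary range overlapped both. The ratio of miR-376b to miR-376c came to 1.72 and 1.30 on the control arrays, 1.27 and 1.10 on the Rb-depleted primary ones, and 0.938, 1.11 and 0.916 on the secondary ones. It was lower in secondary than in control cells without overlap (exact permutation p = 0.1, adjusted p = 0.429). Entries of 1 cluster of hairpins thus had unequal changes in the measured values, with none of the 18 comparisons past an adjusted p of 0.05, which this number of arrays cannot reach.

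Both arms of miR-376b come from 1 hairpin. The signal of miR-376b* was that of 1 probe, the brighter of its 2. The signal of miR-376b was 7.30 and 6.07 times that of miR-376b* on the control arrays, 6.15 and 5.18 times on the Rb-depleted primary ones, and 3.67, 5.70 and 4.68 times on the secondary ones. On the deposited log2 scale the difference between the arms was 2.91 ± 0.49 (SD, n = 2) in control cells, 3.07 ± 0.57 (SD, n = 2) in Rb-depleted primary cells and 2.13 ± 0.31 (SD, n = 3) in Rb-depleted secondary cells. The secondary arrays were below both primary groups without overlap on that scale (exact permutation p = 0.1 and adjusted p = 0.15 against each). In the scanner signals they overlapped the Rb-depleted primary arrays (exact permutation p = 0.4), and against control cells p was 0.2. For Rb-depleted primary against control cells the change in this difference was 0.16 in the deposited values and -0.24 in the scanner signals (exact permutation p = 0.667 for both), so its direction depended on the scale.

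**Figure D3:**
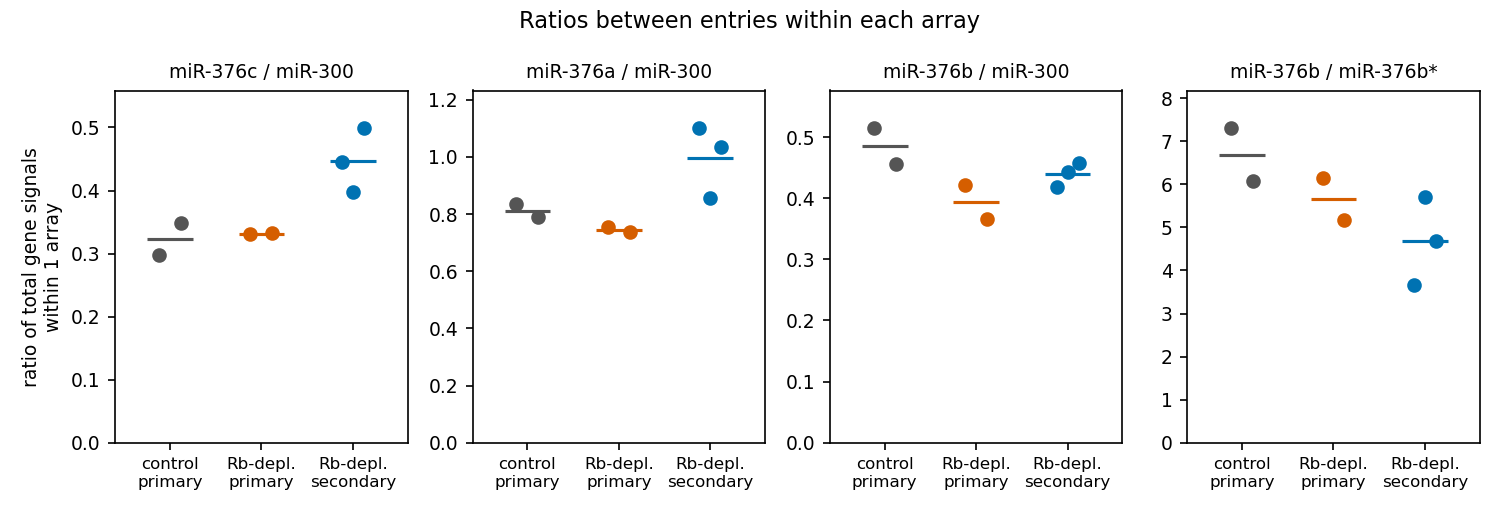
Ratio of total gene signals of 2 entries within each array (linear axes from 0), for miR-376c, miR-376a and miR-376b over miR-300 and for the 2 arms of miR-376b; points are arrays and lines are group means. The 3 secondary points lie above all primary points in the first and second panels, at 0.398 to 0.499 and 0.857 to 1.10.

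Each entry has several probes on the array, which differ in how they pair with the miRNA. Every probe was printed as several spots, 20 spots per entry in all. The signal of miR-376b* was that of the brighter of its 2 probes alone. Its other probe read from 3.25 to 7.10 units and did not enter that signal. For Rb-depleted primary against control cells, without normalization, the 2 probes of miR-300 had log2 fold changes of -0.98 and -0.94, those of miR-376a -1.10 and -1.02, and those of miR-376b -1.28 and -1.23. The 4 probes of miR-376c ran from -1.07 to -0.82 and the 2 of miR-376b* were at -1.01 and -0.76. Of these 12 probes, 12 were lower in Rb-depleted primary cells. Without normalization the median over the deposited table's miRNAs was also lower, at -0.26, and the share of lower probes over the whole array was not computed. Against control cells the probes of miR-376c in secondary cells ran from -0.32 to -0.07 and those of miR-376b from -0.94 to -0.87. The separation of these entries was thus seen in every probe. For this pair of groups the median over the deposited table's miRNAs was -0.46 without normalization. The probes of miR-376c lay above that median and those of miR-376b below it. In the deposited values the log2 fold change of miR-376c was 0.31 (limma adjusted p = 0.137). Probes of 1 entry read the same RNA and are not replicates of a condition.

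**Figure D4:**
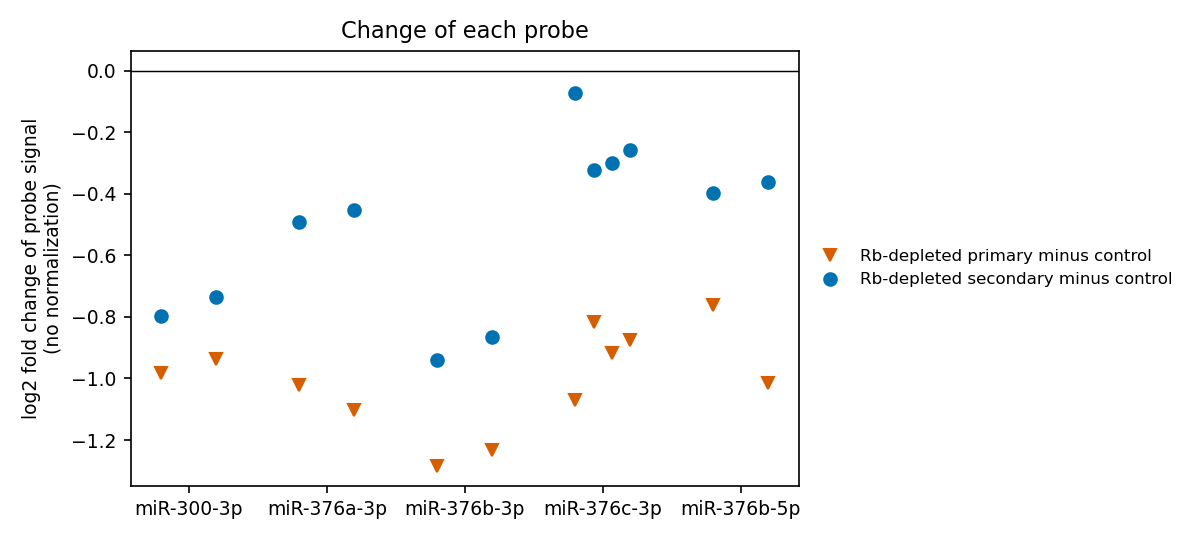
Log2 fold change of the mean signal of each probe, without normalization, for Rb-depleted primary (triangles) and Rb-depleted secondary cells (circles) against control cells; each symbol is 1 probe, set side by side within its entry. All triangles lie between -1.28 and -0.76, and the circles of miR-376c lie between -0.32 and -0.07. Without normalization the median over the deposited table's miRNAs was -0.26 for Rb-depleted primary and -0.46 for secondary against control cells.

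The cluster holds further miRNAs, and 32 other entries of the Dlk1-Dio3 region were in the deposited table. Between Rb-depleted primary and control cells all 32 had log2 fold changes below 0, from -1.78 to -0.14. Values below 0 were also seen in 48.8% of the 252 miRNAs. In 26 of the 32 the groups did not overlap in that direction, as in 26.6% of the 252. Their median was -0.52, that of the members was -0.69, and that of all 252 was 0.01. Of the 32, 2 passed an adjusted p of 0.05, both lower, beside 1.59% of all 252 in either direction. Between Rb-depleted secondary and control cells the medians were -0.19 for the 32, -0.01 for the members and 0.03 for all, and 3 of the 32 passed as lower and 1 as higher, beside 9.52% and 13.1% of all 252. Between Rb-depleted secondary and primary cells they were 0.28, 0.68 and 0.02, with 3 of the 32 passing as higher and 1 as lower, beside 12.7% and 7.54% of all 252. The first 2 comparisons share the control arrays. The members' values lay within the range of the other 32 in each comparison.

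**Figure D5:**
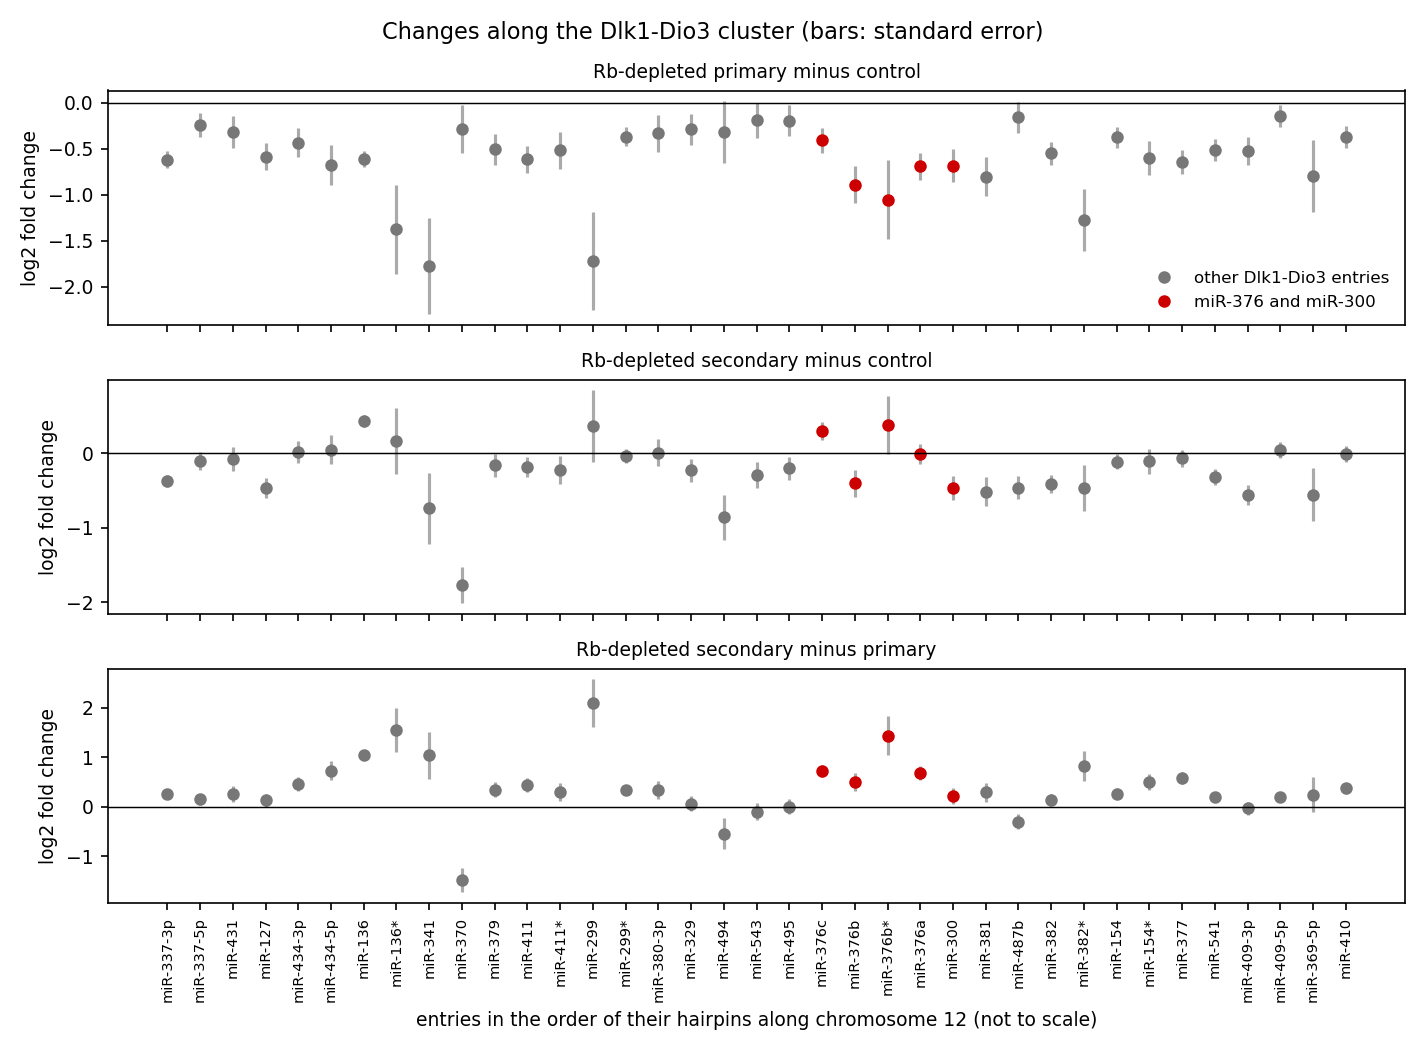
Log2 fold change (with standard error) of the 37 Dlk1-Dio3 entries of the deposited table in the 3 pairs of groups, ordered by hairpin position along chromosome 12, with the 5 members in red. Every point of the top panel is below 0, and the members sit side by side within the range of the other entries in each panel.

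The nearest measured hairpins on either side differed from each other. miR-495, 3.964 kb before the start of Mir376c, had signals of 140.0 and 163.5 units on the control arrays, 124.1 and 78.6 on the Rb-depleted primary ones, and 96.4, 97.5 and 87.6 on the secondary ones. Its deposited values overlapped between all groups, with log2 fold changes of -0.19 for Rb-depleted primary against control cells (adjusted p = 0.499) and -0.20 for secondary against control cells (adjusted p = 0.408). miR-381, whose start lay 4.104 kb after that of Mir376c, had signals of 41.6 and 42.8 units on the control arrays, 24.2 and 13.3 on the Rb-depleted primary ones, and 17.1, 21.7 and 18.1 on the secondary ones. Its log2 fold changes were -0.81 (adjusted p = 0.113), -0.51 (adjusted p = 0.123) and, for secondary against primary cells, 0.29 (adjusted p = 0.315). For miR-300, whose 3p arm differs from that of miR-381 by 3 bases, these were -0.68, -0.47 and 0.22.

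The 5 non-member entries whose deposited values followed the members' mean profile most closely over the 7 arrays were all of the Dlk1-Dio3 list. Besides the members, that list held 32 of the 252 mouse miRNAs in the deposited table. The 5 entries were miR-434-5p (Pearson r = 0.98), miR-136* (0.98), miR-299* (0.98), miR-410 (0.98) and miR-377 (0.97). These values describe likeness only, since the points share 7 arrays, 3 groups and 1 normalization. For Rb-depleted primary against control cells their log2 fold changes were -0.68, -1.38, -0.37, -0.38 and -0.64 in the same order, and for secondary against control cells 0.05, 0.17, -0.03, -0.01 and -0.07. In these 5, as in miR-376a, the secondary cells were near the control cells and the Rb-depleted primary cells were lower. The 5 were chosen for their likeness to the members on these same arrays, so this shared pattern follows from the choice. Among the members, miR-376b and miR-300 followed each other most closely (r = 0.95, n = 7 arrays) and miR-376c and miR-300 least (r = 0.36).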

How the data were processed

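Cy3-labelled miRNA from 100 ng total RNA (RNA integrity number 10 for every sample, per the labels) was hybridized to 1-colour Agilent mouse miRNA arrays. The authors deposited the scanner's intensity for every spot and miRNA, made with Agilent Feature Extraction (10.7.3.1 per the labels, 11.0.1.1 per the file headers), and a table of log2 values that they had quantile normalized in GeneSpring. The table's 252 mouse miRNAs were those detected on all 7 arrays, and 11 control rows were left out. Its values were rebuilt from the 718 scanner features to within 3.24e-06, which matched each table name to 1 scanner name.

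The log2 values were fitted with limma 3.58.1 in R 4.3.3 (statmod 1.5.0 for array weights), with 1 mean per group over all 7 arrays. Benjamini-Hochberg adjustment ran over the 252 miRNAs, at 0.05 for pairs of groups and 0.1 for the F-test. The script was tested on simulated data. Differences within an array were compared with exact two-sided permutation tests (scipy 1.17.1, numpy 2.4.6, pandas 2.3.3, Python 3.11.15), and figures were drawn with matplotlib 3.10.9. Alternatives were other scalings, a wider set of miRNAs, other moderation, array weights, a replicate block, slide as a term, Dunnett's adjustment, classical tests and each array left out. Hairpins were placed by exact match on NCBIM37, where 46 of 48 listed Dlk1-Dio3 hairpins were found.

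Named miRNAs were all arms of the 4 hairpins, the nearest measured hairpin on each side, the 5 entries most like the members' mean profile and entries sharing a member's seed. The members and lists were chosen with earlier results of these data known.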

Additional observations from a re-analysis of the deposited data

Results flagged for a closer look

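The difference between the secondary and primary kinds of Rb-depleted cells, each set against the same control arrays, was itself tested in limma's fit and was past an adjusted p of 0.05 for 2 entries. It was 0.680 on the log2 scale for miR-376a and 0.715 for miR-376c. Neither passed with slide as a term (adjusted p = 0.0939 and 0.112), without normalization (0.0677 and 0.0648), in classical tests (0.0644 and 0.0566), with the replicate block (0.114 for both), or without Rb-depleted primary replicate 2, secondary replicate 1 or secondary replicate 3.

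Outside the deposited table, the 5p arm of miR-376a had a signal on arrays of Rb-depleted secondary cells while both control arrays were not called. It was 4.44 units on replicate 2 and 3.48 units on replicate 3, the arrays of the second slide. The brightest probe on the control arrays read 4.14 and 4.32 units. With groups of 2 or 3 arrays, no array was tested for lying apart from its group.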

How the results depend on the processing

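Of the 5 entries, 0 passed between Rb-depleted primary and control cells, and this became 5 without normalization and 4 with Dunnett's adjustment (0 to 4 with each array left out, 4 without Rb-depleted primary replicate 1). For secondary against control cells, 0 became 2 without normalization and 1 with array weights (0 to 1 with each array left out, 1 without either Rb-depleted primary array). For secondary against primary cells, 2 became 0 without normalization, with the replicate block, with slide as a term and in classical tests (0 to 3 with each array left out). For the F-test, 5 became 0 with the replicate block, 0 with slide as a term and 2 in classical tests (1 to 5 with each array left out). For secondary against primary cells 3 entries passed, miR-376b* among them, when scaled to the 75th percentile or with the table's miRNAs normalized alone. Whether the replicate numbers mark paired arrays was not settled. The correlations of same-numbered arrays' deviations ran from -0.14 to 0.13, and not every array correlated best with its own number. In a group of 2 the deviations of the arrays mirror each other, so these few correlations cannot decide it. Over all 252 miRNAs the block moved the calls from 4, 57 and 51 to 0, 4 and 0, slide as a term to 0, 6 and 0, classical tests to 5, 34 and 15, no normalization to 27, 114 and 45, scaling to the 75th percentile to 0, 29 and 34, and array weights to 8, 85 and 56 in the order of the report. Under the F-test 109 became 6 with the block, 24 with slide, 62 in classical tests and 77 scaled to the 75th percentile.

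The members' median log2 fold change was -0.69 for Rb-depleted primary against control cells, -1.01 without normalization, and -0.93 to -0.44 with each array left out. For secondary against control cells it was -0.01, -0.46 without normalization and 0.098 with slide as a term. For secondary against primary cells it was 0.68, and 0.48 to 0.88 with each array left out. The difference between the arms of miR-376b for Rb-depleted primary against control cells, 0.16, reversed to -0.24 scaled to the 75th percentile or without normalization and to -0.20 with the table's miRNAs normalized alone (-0.24 to 0.56 with each array left out).

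Smaller values also changed sign. miR-376a for secondary against control cells, -0.01, became 0.017 with array weights, 0.00023 with the replicate block or without secondary replicate 3, 0.098 with slide and 0.032 without secondary replicate 2 (-0.066 to 0.032 with each array left out). Without normalization miR-376b* and miR-376c for secondary against control cells became -0.36 and -0.29. miR-300 for secondary against primary cells became -0.032 without Rb-depleted primary replicate 2 (-0.032 to 0.463 with each array left out). The within-array difference of miR-376a and miR-300 for Rb-depleted primary against control cells, -0.01 in the deposited values, became 0.031 without control replicate 2 and 0.044 without Rb-depleted primary replicate 1 (-0.060 to 0.044 with each array left out). That of miR-376b and miR-300 for secondary against control cells, 0.07, became -0.14 scaled to the 75th percentile or without normalization and -0.031 without control replicate 2. The causes of these changes were not tested, and the within-array differences were chosen after seeing the data.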
